A study of Mus musculus with 12 samples.

Results

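The fatty acid elongases and desaturases measured here were 10 genes taken by symbol from the array's probe annotation: the desaturases Scd1, Scd2, Fads1 and Fads2 and the elongases Elovl1, Elovl3, Elovl4, Elovl5, Elovl6 and Elovl7. Each was read by 1 probe set that listed no other gene, and all 10 were among the 19938 genes tested. Signals came from 12 single-colour arrays of mouse embryonic fibroblasts of strain C57BL6, grown from embryos of embryonic day 14 in medium with 10% serum, in 4 groups of 3 samples. The groups were D1D2KO differentiated, D1D2KO undifferentiated, WT differentiated and WT undifferentiated, where D1D2KO cells are labelled as deficient in the acyltransferases DGAT1 and DGAT2, which complete triacylglycerol synthesis, and WT is wild type. From 2 days past confluency the differentiated groups were given 1 µM dexamethasone, 500 µM isobutylmethylxanthine, 5 µg/ml insulin and 15 µM troglitazone for 2 to 3 days, then insulin and troglitazone alone for 2 days, then plain medium until harvest. The labels name no embryo, clone or culture for a sample and do not describe the mutant alleles, so p-values measure only the spread between these samples, which may be technical.

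Fatty acid synthase releases mainly palmitate, a saturated acid that cells lengthen and desaturate before most of it is stored or built into membranes. Elongases of the ELOVL family carry out the condensing step that adds carbons in the endoplasmic reticulum, each with its own preferred substrates, and a reductase, a dehydratase and a second reductase complete the cycle. The stearoyl-CoA desaturases SCD1 and SCD2 turn saturated into monounsaturated acids, the main acyl chains of adipocyte triacylglycerol. FADS2 catalyses the entry step, and FADS1 a later one, in making long polyunsaturated acids such as arachidonic acid from the essential fatty acids of the diet. In mammals sterol regulatory element binding proteins activate many of these genes, and polyunsaturated acids lower their expression.

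All values are array signals in log2 units. Differences between groups carry the standard error (SE) from 1 limma fit of the 12 samples, and calls required an adjusted p (Benjamini-Hochberg, 19938 genes) below 0.05. Signal levels of different probe sets were set against each other only in averages over markers and in places among the 19938 genes tested. Those places include the quartiles and median of an array. In bulk cultures fewer cells expressing a gene and less RNA per cell cannot be told apart. Both targeted genes had signal in D1D2KO cells, and whether their probe sets lie in the deleted parts is not given in the sources used here. Dgat1 had 8.26, 8.03 and 7.75 in D1D2KO differentiated samples, 5.56, 5.60 and 5.66 in D1D2KO undifferentiated samples, 9.36, 9.33 and 9.53 in WT differentiated samples and 6.94, 6.93 and 6.98 in WT undifferentiated samples. Dgat2 had 8.37, 8.62 and 8.66 in D1D2KO differentiated samples, 5.44, 5.5 and 5.51 in D1D2KO undifferentiated samples, 10.28, 9.86 and 10.53 in WT differentiated samples and 5.94, 5.98 and 5.95 in WT undifferentiated samples. In all 3 D1D2KO differentiated samples both genes were above the upper quartile of the array, and on differentiation of D1D2KO cells Dgat1 rose 5.31-fold and Dgat2 8.38-fold (limma, adjusted p = 1.24e-11 for Dgat1 and 5.94e-12 for Dgat2). In WT cells Dgat1 rose 5.48-fold and Dgat2 19.2-fold, a difference in response of -1.20 for Dgat2 (SE 0.18; adjusted p = 0.00271). Both were lower in D1D2KO than in WT cells: Dgat1 by 1.39 (SE 0.11) and Dgat2 by 1.67 (SE 0.13) in differentiated cells, and Dgat1 by 1.34 (SE 0.11) in undifferentiated cells. In undifferentiated cells Dgat2 was lower by 0.47 (SE 0.13; adjusted p = 0.0345), a call lost without any 1 of those 6 samples (adjusted p from 0.0530 to 0.126). The 10 adipocyte markers averaged 10.88 to 11.09 in D1D2KO differentiated samples against 6.25 to 6.29 in D1D2KO undifferentiated ones, and 10.47 to 10.66 in WT differentiated samples against 6.39 to 6.47 in WT undifferentiated ones. The 11 fibroblast markers averaged 10.28 to 10.40 in D1D2KO differentiated samples against 11.20 to 11.23 in D1D2KO undifferentiated ones, and 10.66 to 10.72 in WT differentiated samples against 11.20 to 11.24 in WT undifferentiated ones.

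The promoter windows of Elovl6, Fads2 and Elovl5 are shown. These were the members with a window in the table that were called lower in differentiated D1D2KO than in differentiated WT cells. RefSeq windows on GRCm38.p6, from 250 bases before to 50 bases after a gene's start, were found for 6 of the 10 members, and Scd1, Scd2, Fads1 and Elovl3 had no entry. Capitals mark any match, on either strand, to the CCAAT box, the palindrome CACGTG, the sterol element core TCACCCCAC, or the nuclear receptor site AGGTCA repeated in the same direction with 1 base (direct repeat 1) or 4 bases (direct repeat 4) between. The Elovl6 window is chr3:129532136-129532435, plus strand, the Fads2 window is chr19:10101454-10101753, minus strand, and the Elovl5 window is chr9:77917115-77917414, plus strand.
Elovl6: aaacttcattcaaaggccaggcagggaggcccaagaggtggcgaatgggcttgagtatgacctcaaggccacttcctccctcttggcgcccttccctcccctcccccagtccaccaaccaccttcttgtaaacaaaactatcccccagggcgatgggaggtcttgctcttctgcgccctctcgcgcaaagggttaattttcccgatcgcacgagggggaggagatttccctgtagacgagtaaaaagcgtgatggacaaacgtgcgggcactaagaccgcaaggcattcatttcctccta
Fads2: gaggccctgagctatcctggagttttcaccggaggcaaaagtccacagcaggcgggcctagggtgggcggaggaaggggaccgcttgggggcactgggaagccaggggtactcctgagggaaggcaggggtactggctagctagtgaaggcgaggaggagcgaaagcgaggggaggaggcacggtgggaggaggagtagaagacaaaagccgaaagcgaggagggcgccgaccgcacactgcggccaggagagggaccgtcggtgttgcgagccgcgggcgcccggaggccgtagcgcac
Elovl5: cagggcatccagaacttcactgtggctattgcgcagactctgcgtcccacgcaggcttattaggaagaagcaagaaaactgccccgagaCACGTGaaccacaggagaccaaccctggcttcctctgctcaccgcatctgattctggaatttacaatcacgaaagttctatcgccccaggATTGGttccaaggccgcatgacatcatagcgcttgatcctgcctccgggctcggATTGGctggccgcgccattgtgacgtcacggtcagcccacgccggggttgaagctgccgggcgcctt

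The Elovl5 window held CACGTG with its first base at -161 from the start and CCAAT on the reverse strand with the first base at -71 and at -17. The Elovl6 and Fads2 windows held 0 of the 5 motifs in these 300 bases. Among all 32851 windows of the table, 37.4% held CCAAT, 7.15% held CACGTG and 0.551% held TCACCCCAC, while direct repeat 1 was in 13 windows and direct repeat 4 in 5. Of the 7 windows of members, 3 held CCAAT, 2 held CACGTG and 0 held the other motifs.

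Differentiation of D1D2KO cells changed 9 of the 10 genes, with 4 higher (Scd1, Scd2, Elovl3 and Elovl4) and 5 lower (Fads1, Fads2, Elovl1, Elovl5 and Elovl6). Of all genes 36.7% were called in that comparison, 15.4% higher and 21.2% lower. In WT cells 6 of the 10 were called, the same 4 genes higher and Elovl1 and Elovl5 lower, against 34.1% of all genes, 14.7% higher and 19.4% lower. The median change of the members was -0.07 in D1D2KO and 0.01 in WT cells, and that of all genes 0.01 in D1D2KO and 0.02 in WT cells. Samples of the states did not overlap for 9 members in D1D2KO and 7 in WT cells, as for 48.1% of all genes in D1D2KO and 43.9% in WT cells. All 10 genes by sample are in the plot of signals, and their changes with intervals in the plot of change on differentiation.

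**Figure D1:**
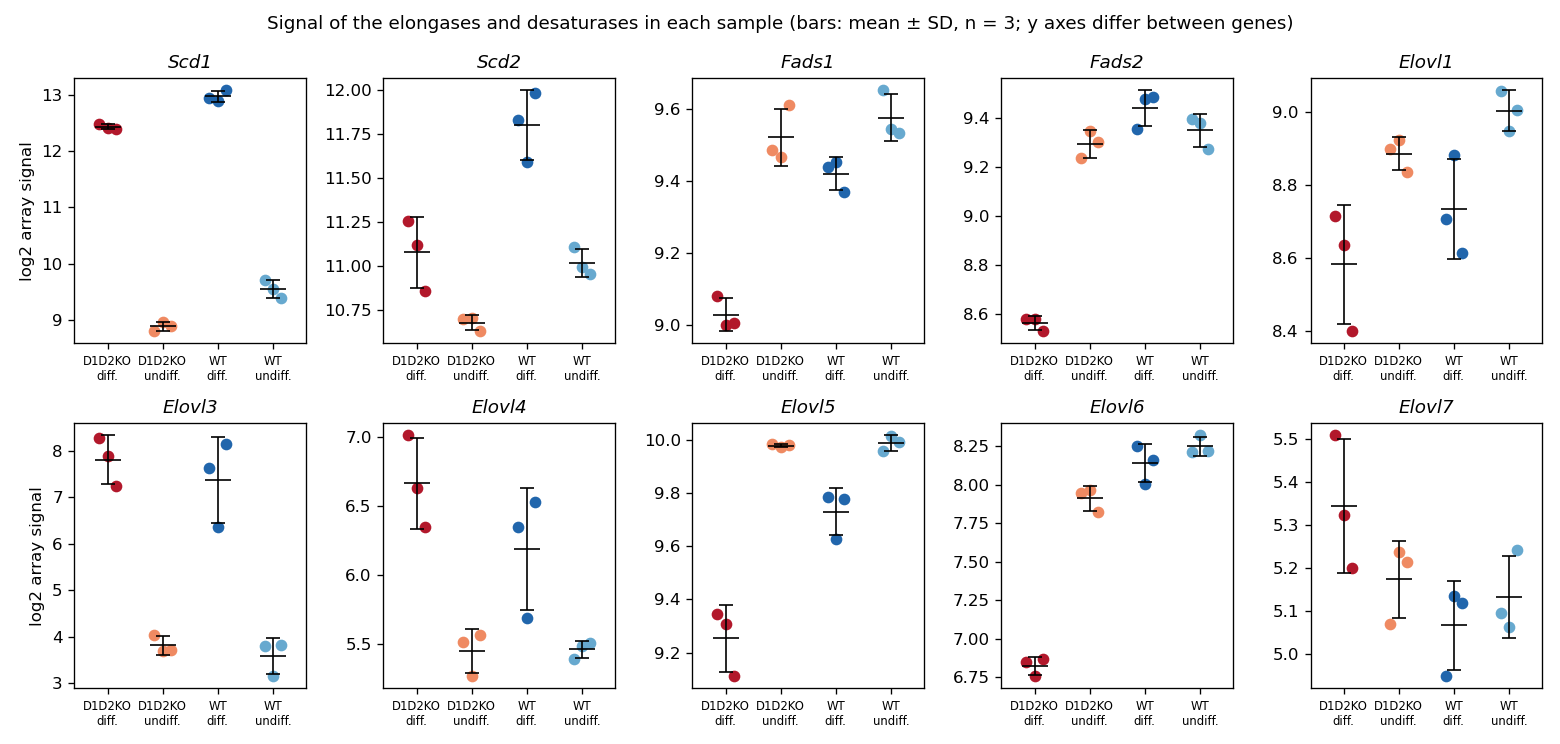
Log2 array signal of each gene (y axis, own scale per gene) in every sample of the 4 groups (x axis); points are samples and black bars the mean ± SD of 3 samples. Elovl6 and Fads2 are lowest in all 3 D1D2KO differentiated samples, while Scd1 and Elovl3 are high in all 6 differentiated samples.

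**Figure D2:**
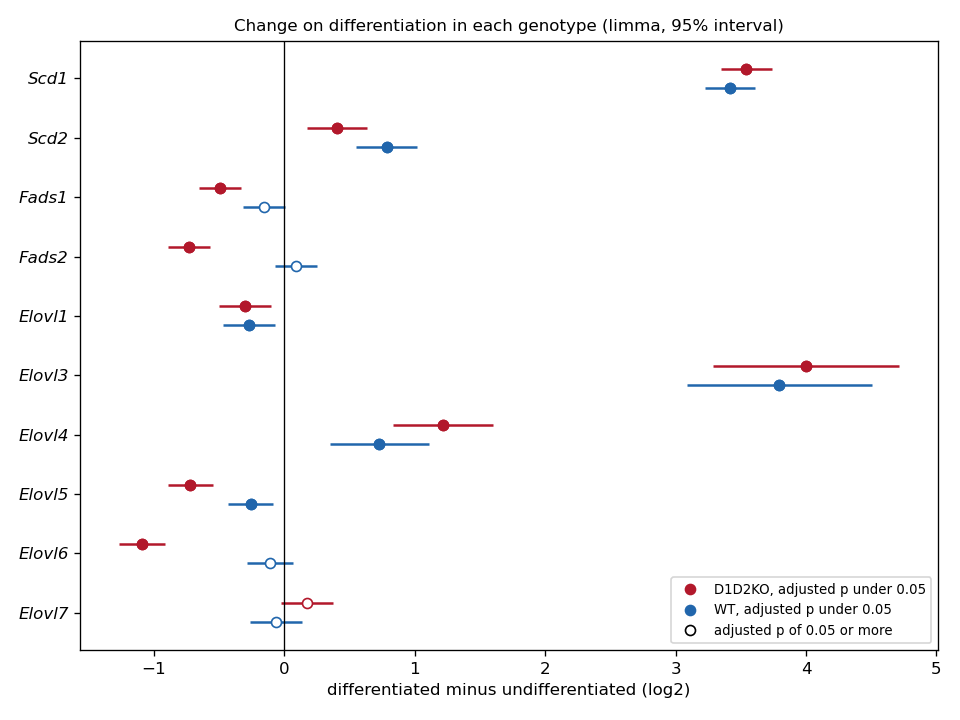
Differentiated minus undifferentiated signal (x axis, log2) of each gene (y axis) in D1D2KO and WT cells, with limma 95% intervals; filled points have an adjusted p under 0.05. Elovl6 lies at -1.09 in D1D2KO and -0.11 in WT cells, and Fads2 at -0.73 in D1D2KO and 0.09 in WT cells.

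Scd1 is the main stearoyl-CoA desaturase of fat and liver, and it was read by probe set 10467979. It had signals of 12.48, 12.42 and 12.40 in D1D2KO differentiated samples, 8.80, 8.97 and 8.89 in D1D2KO undifferentiated samples, 12.94, 12.89 and 13.08 in WT differentiated samples and 9.71, 9.56 and 9.39 in WT undifferentiated samples. No groups overlapped, and their order was WT differentiated, D1D2KO differentiated, WT undifferentiated, D1D2KO undifferentiated. Scd1 rose by 3.54 (SE 0.09) in D1D2KO cells, an 11.7-fold change, and by 3.42 (SE 0.09) in WT cells, a 10.7-fold change (limma, adjusted p = 1.06e-14 in D1D2KO and 2.94e-14 in WT). It was lower in D1D2KO than in WT cells by 0.54 (SE 0.09) when differentiated (adjusted p = 0.00113) and by 0.66 (SE 0.09) when undifferentiated (adjusted p = 0.000341). Between the genotypes the response differed by 0.12 (95% interval -0.15 to 0.40; adjusted p = 0.828), so the lower signal in D1D2KO cells was present in both states.

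Scd2, the isoform prominent in brain and in embryonic and neonatal tissues of the mouse, was read by probe set 10463355 and moved less. Its signals were 11.26, 11.12 and 10.86 in D1D2KO differentiated samples, 10.70, 10.70 and 10.63 in D1D2KO undifferentiated samples, 11.83, 11.59 and 11.98 in WT differentiated samples and 11.11, 10.995 and 10.95 in WT undifferentiated samples. WT differentiated samples were highest and D1D2KO undifferentiated samples lowest, and the D1D2KO differentiated samples overlapped the WT undifferentiated ones. Scd2 rose by 0.40 (SE 0.11) in D1D2KO cells and by 0.78 (SE 0.11) in WT cells (limma, adjusted p = 0.00724 in D1D2KO and 2.16e-05 in WT), a difference in response of -0.38 (95% interval -0.71 to -0.06) that did not pass (adjusted p = 0.328). D1D2KO cells were lower by 0.72 (SE 0.11) when differentiated (adjusted p = 0.000415). When undifferentiated they were 0.34 below WT without a call (SE 0.11; adjusted p = 0.0634), a difference called without WT differentiated replicate 2 (adjusted p = 0.0400) or D1D2KO differentiated replicate 3 (adjusted p = 0.0385) and under 3 other settings, though these samples are not among those compared and enter through the shared spread.

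Fads2 and Fads1 differed between the genotypes after differentiation. Fads2, the enzyme of the entry step, read by probe set 10465895, had signals of 8.58, 8.58 and 8.53 in D1D2KO differentiated samples, 9.24, 9.35 and 9.30 in D1D2KO undifferentiated samples, 9.36, 9.48 and 9.49 in WT differentiated samples and 9.40, 9.38 and 9.28 in WT undifferentiated samples. The 3 D1D2KO differentiated samples stood below all 9 others. Fads2 fell by 0.73 (SE 0.08) in D1D2KO cells (limma, adjusted p = 5.18e-07), and changed by 0.09 (95% interval -0.07 to 0.25) in WT cells (adjusted p = 0.401). Its response differed between genotypes by -0.82 (SE 0.11; adjusted p = 0.000845), rank 41 from the most negative of 19938 genes, in a comparison where 1.46% of all genes were called. Differentiated D1D2KO cells had 0.543 of the WT signal (difference -0.88, SE 0.08; adjusted p = 1.48e-06), whereas in undifferentiated cells the difference was -0.06 (95% interval -0.22 to 0.10; adjusted p = 0.653).

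Fads1, the desaturase of the later step, read by probe set 10461439, had signals of 9.08, 9.0 and 9.01 in D1D2KO differentiated samples, 9.49, 9.47 and 9.61 in D1D2KO undifferentiated samples, 9.44, 9.45 and 9.37 in WT differentiated samples and 9.65, 9.54 and 9.53 in WT undifferentiated samples. The D1D2KO differentiated samples were again the 3 lowest, and the undifferentiated groups overlapped. Fads1 fell by 0.49 (SE 0.08) in D1D2KO cells (limma, adjusted p = 5.23e-05), while its change of -0.16 in WT cells did not pass (95% interval -0.32 to 0.01; adjusted p = 0.135). It was 0.39 (SE 0.08) lower in D1D2KO than in WT differentiated cells (adjusted p = 0.00345), and the difference in response of -0.34 (95% interval -0.57 to -0.11) did not pass over all genes (adjusted p = 0.166). Fads1 and Fads2 lie close together on chromosome 19 beside Fads3, a family member of less settled function. On differentiation Fads3 rose by 1.23 (SE 0.08) in D1D2KO and 1.46 (SE 0.08) in WT cells. Fads1 and Fads2 were called lower on differentiation in D1D2KO cells only. Fads3 was lower in D1D2KO than in WT differentiated cells, by 0.39 (SE 0.08; limma, adjusted p = 0.00697).

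Elovl6, which extends palmitate towards stearate, gave the widest genotype difference among the members. Read by probe set 10495993, it had signals of 6.85, 6.75 and 6.87 in D1D2KO differentiated samples, 7.94, 7.97 and 7.82 in D1D2KO undifferentiated samples, 8.25, 8.01 and 8.16 in WT differentiated samples and 8.21, 8.32 and 8.22 in WT undifferentiated samples. D1D2KO differentiated samples lay below all 9 others, D1D2KO undifferentiated samples came next, and the WT groups overlapped. Elovl6 fell by 1.09 (SE 0.08) in D1D2KO cells (limma, adjusted p = 1.30e-08) and changed by -0.11 (95% interval -0.29 to 0.07) in WT cells (adjusted p = 0.347). Elovl6 responses differed between genotypes by -0.98 (SE 0.12; adjusted p = 0.000501), rank 19 from the most negative of all genes. In differentiated cells D1D2KO samples were lower by 1.32 (SE 0.08), a signal 2.49-fold below WT (adjusted p = 4.01e-08), and 0.166% of genes differed by more. In undifferentiated cells the difference was -0.34 (SE 0.08; adjusted p = 0.0241), a call that ended without WT undifferentiated replicate 1 (adjusted p = 0.0621) or 2 (0.121) or D1D2KO undifferentiated replicate 1 (0.0606) or 3 (0.124), and after quantile normalization (0.0959).

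Elovl5, which extends polyunsaturated acids next to the FADS enzymes, had signals of 9.35, 9.31 and 9.11 in D1D2KO differentiated samples, 9.98, 9.97 and 9.98 in D1D2KO undifferentiated samples, 9.78, 9.63 and 9.78 in WT differentiated samples and 9.96, 10.01 and 9.99 in WT undifferentiated samples. It was lowest in the D1D2KO differentiated samples and next lowest in the WT differentiated ones, and the undifferentiated groups overlapped. Elovl5, read by probe set 10587284, fell by 0.72 (SE 0.08) in D1D2KO cells (limma, adjusted p = 1.48e-06) and by 0.26 (SE 0.08) in WT cells (adjusted p = 0.0211). The WT call ended without WT undifferentiated replicate 2 (adjusted p = 0.0676) or 3 (0.0510) or WT differentiated replicate 2 (0.0750). Differentiated D1D2KO cells were 0.47 (SE 0.08) below WT (adjusted p = 0.00132), and undifferentiated cells differed by -0.01 (95% interval -0.18 to 0.16; adjusted p = 0.950). The difference in response of -0.47 (SE 0.12) did not pass (adjusted p = 0.0578) and passed it without WT differentiated replicate 2 (adjusted p = 0.0435) and under 4 other settings.

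Elovl3, an elongase of saturated and monounsaturated very long chains known from brown fat, liver and skin of the mouse, was one of the steepest rises among the members. Read by probe set 10463551, it had signals of 8.29, 7.90 and 7.25 in D1D2KO differentiated samples, 4.04, 3.68 and 3.71 in D1D2KO undifferentiated samples, 7.64, 6.35 and 8.15 in WT differentiated samples and 3.79, 3.14 and 3.82 in WT undifferentiated samples. All 6 undifferentiated samples lay under the lower quartile of their arrays, and with no detection calls the size of the rise is uncertain. Elovl3 rose by 4.0 (SE 0.34) in D1D2KO cells and 3.80 (SE 0.34) in WT cells (limma, adjusted p = 3.99e-08 in D1D2KO and 1.18e-07 in WT), ranks 39 in D1D2KO and 35 in WT among all genes. The spread was wide in differentiated samples, with an SD of 0.53 in D1D2KO and 0.92 in WT cells, and the genotypes overlapped there. Their difference of 0.43 had a 95% interval of -0.28 to 1.14 (adjusted p = 0.392), and without WT differentiated replicate 2, the lowest of the 6 samples, it was -0.08.

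Elovl4, which makes the very long chains of retina, brain and skin, had signals of 7.01, 6.63 and 6.35 in D1D2KO differentiated samples, 5.51, 5.26 and 5.57 in D1D2KO undifferentiated samples, 6.35, 5.68 and 6.53 in WT differentiated samples and 5.39, 5.48 and 5.51 in WT undifferentiated samples. The differentiated groups overlapped each other, as did the undifferentiated groups, and both differentiated groups stood above both undifferentiated ones. Read by probe set 10595392, it rose by 1.22 (SE 0.18) in D1D2KO cells and by 0.73 (SE 0.18) in WT cells (limma, adjusted p = 3.17e-05 in D1D2KO and 0.00429 in WT). The difference between differentiated genotypes, 0.48 (95% interval 0.10 to 0.86), did not pass (adjusted p = 0.0865), though it did without WT differentiated replicate 3 (adjusted p = 0.0348) or D1D2KO differentiated replicate 3 (adjusted p = 0.0499). Its response differed between genotypes by 0.49 (95% interval -0.05 to 1.03; adjusted p = 0.510).

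The other elongases moved little. Elovl1, a widely expressed elongase of saturated very long chains, read by probe set 10507539, had signals of 8.40 to 8.71 in D1D2KO differentiated samples, 8.84 to 8.92 in D1D2KO undifferentiated samples, 8.61 to 8.88 in WT differentiated samples and 8.95 to 9.06 in WT undifferentiated samples. It fell by 0.30 (SE 0.09) in D1D2KO and 0.27 (SE 0.09) in WT cells (limma, adjusted p = 0.0165 in D1D2KO and 0.0351 in WT). The D1D2KO call ended without D1D2KO undifferentiated replicate 1 (adjusted p = 0.0501) or 2 (0.0582) or D1D2KO differentiated replicate 3 (0.0871). The WT call ended without any 1 of the WT undifferentiated replicates (adjusted p from 0.0505 to 0.116) or WT differentiated replicate 1 (0.0856) or 3 (0.144). Elovl7, read by probe set 10407072, was under the array median in all 12 samples, at 5.20 to 5.51 in D1D2KO differentiated, 5.07 to 5.24 in D1D2KO undifferentiated, 4.95 to 5.13 in WT differentiated and 5.06 to 5.24 in WT undifferentiated samples. None of its 5 comparisons was called in the fit of all samples, and the widest, 0.28 between differentiated D1D2KO and WT cells (95% interval 0.08 to 0.48; adjusted p = 0.0602), passed without D1D2KO differentiated replicate 3 (adjusted p = 0.0365).

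Set side by side, the genotype comparison in differentiated cells called 6 of the 10 genes, all lower in D1D2KO: all 4 desaturases together with Elovl5 and Elovl6. Of all genes 13.7% were called there, 6.25% higher and 7.42% lower, and the median difference was -0.43 for the members and 0.03 for all genes. The 6 called members had high mean signals, above those of 79.7% (Elovl6) to 99.4% (Scd2) of all genes. Among only the genes above the median signal, calls were more one-sided, 511 higher and 1691 lower, and the same 6 members were called lower. Samples did not overlap for 7 of the members and for 30.9% of all genes. In undifferentiated cells 2 members, Scd1 and Elovl6, were called lower and 0 higher, where 8.02% of all genes were called, 4.4% higher and 3.62% lower. There, 4 members and 39.3% of all genes had samples that did not overlap. The difference in response was called for 2 members, Elovl6 and Fads2, both negative, where 0.712% of all genes were called with a negative and 0.747% with a positive difference. These comparisons share samples. With each array centred on its median, 773 genes were called higher and 1845 lower in D1D2KO differentiated cells, against 1246 and 1480 as deposited, and the same 6 members were called. In undifferentiated cells centring gave 431 higher and 903 lower and quantile normalization 369 and 469, against 878 and 722 as deposited.

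**Figure D3:**
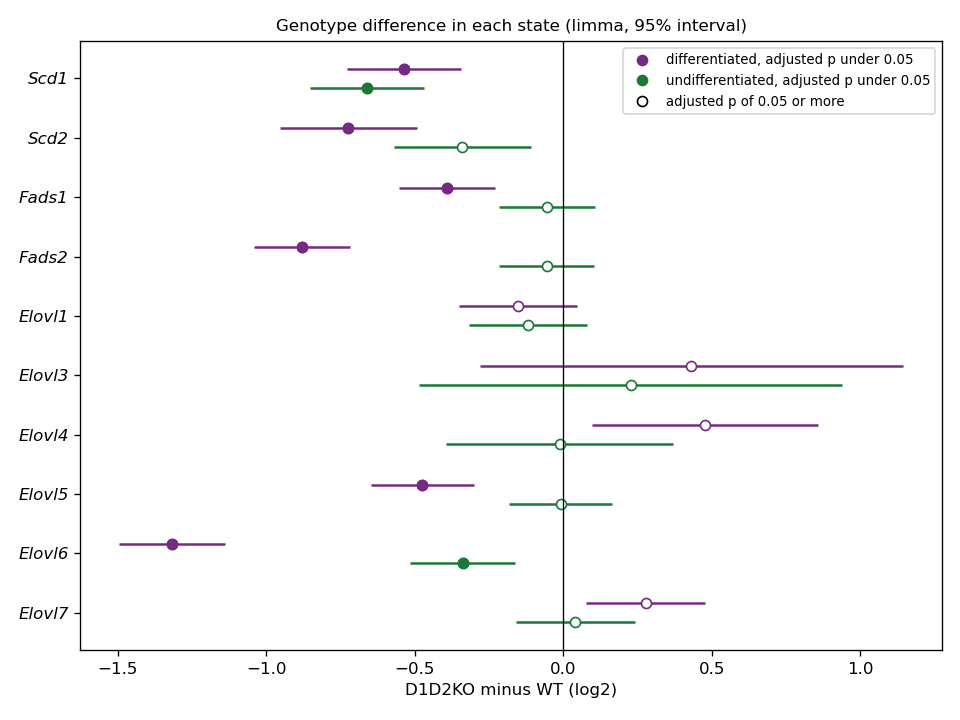
D1D2KO minus WT signal (x axis, log2) of each gene (y axis) in differentiated and undifferentiated cells, with limma 95% intervals; filled points have an adjusted p under 0.05. All 4 desaturases, Elovl5 and Elovl6 are filled on the negative side in differentiated cells, against Scd1 and Elovl6 in undifferentiated cells.

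Markers of cell identity moved between the differentiated groups as well. Of the 10 adipocyte markers 8 were called higher in D1D2KO than in WT differentiated cells (median 0.43) and 0 lower, and of the 11 fibroblast markers 6 were called lower (median -0.27) and 0 higher. The 9 macrophage markers averaged 8.21 to 8.30 in D1D2KO differentiated and 8.36 to 8.55 in WT differentiated samples, with 2 called lower; 0 of the 9 lay under the lower quartile in all samples of any group. Of the 8 brown adipocyte markers 4 were called higher and 0 lower, at an average of 6.48 to 6.67 in D1D2KO and 6.07 to 6.28 in WT differentiated samples. For the difference in response 3 adipocyte markers were called positive and 0 negative (median 0.53). There 1 fibroblast marker was called negative and 0 positive (median -0.36), where 1.46% of all genes were called. The part of these markers in the differences of the elongases and desaturases was not tested.

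Of 19 other enzymes of elongation and desaturation 8 rose and 3 fell in D1D2KO cells, and 9 rose and 2 fell in WT cells (median change 0.12 in D1D2KO and 0.20 in WT). Hsd17b12, the reductase of the elongation cycle, rose by 2.04 (SE 0.11) in D1D2KO and 1.48 (SE 0.11) in WT cells, and the dehydratase Hacd2 by 1.40 (SE 0.09) in D1D2KO and 1.06 (SE 0.09) in WT cells. The dehydratase-family gene Hacd4 fell by 1.35 (SE 0.08) in D1D2KO and 1.28 (SE 0.08) in WT cells. Between differentiated genotypes 2 of the 19 were called higher and 3 lower (median 0.06), with Hacd4 at -0.41 (SE 0.08; limma, adjusted p = 0.00372). Tecr, the last reductase of the cycle, differed by -0.12 (adjusted p = 0.250) and Hsd17b12 by 0.30 (adjusted p = 0.0660), which passed without WT differentiated replicate 3 (adjusted p = 0.0106) and under 4 other settings. For the difference in response 0 of the 19 were called by limma and 5 had an unadjusted p under 0.05. That of Hsd17b12 was 0.56 (SE 0.15; adjusted p = 0.0814) and passed without WT differentiated replicate 3 (adjusted p = 0.0113), among genes above the median signal (0.0323), with trended eBayes (0.0321) and with array weights (0.0271).

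Genes listed under fatty acid synthesis, regulators among them, mostly rose in both genotypes. Of 12 fatty acid synthesis genes 11 rose and 1 fell in D1D2KO cells and 12 rose in WT cells (median change 2.46 in D1D2KO and 2.42 in WT). The 1 that fell in D1D2KO cells, named after its value was seen, was Mid1ip1 at -0.43 (SE 0.10). The largest rises were those of the lipogenic regulator Thrsp (5.70 in D1D2KO, 6.05 in WT), the acetyl-CoA synthetase Acss2 (3.51 in D1D2KO, 3.78 in WT) and the synthase Fasn (2.84 in D1D2KO, 2.99 in WT). In the genotype comparison of differentiated cells 2 of the 12 were called, both lower in D1D2KO. These were Acly, which makes cytosolic acetyl-CoA from citrate, at -1.26 (SE 0.21; limma, adjusted p = 0.000912), and Mid1ip1, a regulator of acetyl-CoA carboxylase, at -0.84 (SE 0.10; adjusted p = 6.18e-05). Malic enzyme Me1 differed by -0.21 (adjusted p = 0.234), and by -0.39 without WT differentiated replicate 2 (adjusted p = 0.0132). Mid1ip1 also had a called difference in response, -0.71 (SE 0.15; adjusted p = 0.0201), lost without replicate 1 or 3 of either undifferentiated group or replicate 1 of WT differentiated (adjusted p from 0.0560 to 0.0600), while that of Acly was -1.12 (SE 0.29; adjusted p = 0.0727) and passed without WT differentiated replicate 2 (adjusted p = 0.00137) and under 3 other settings.

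**Figure D4:**
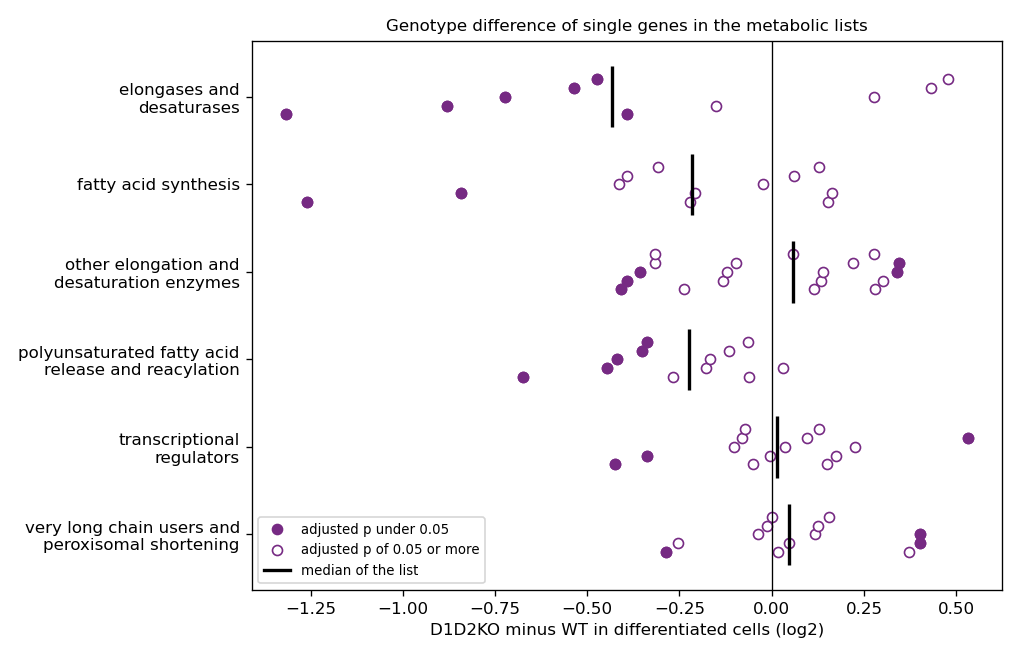
D1D2KO minus WT signal in differentiated cells (x axis, log2) for each gene of the members and 5 related lists (y axis); filled points have an adjusted p under 0.05 and black bars mark list medians. The median is -0.43 for the elongases and desaturases, -0.22 for fatty acid synthesis and 0.06 for the other elongation and desaturation enzymes.

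Among 14 measured regulators of these genes, 10 rose and 3 fell in D1D2KO cells and 9 rose and 3 fell in WT cells. The adipocyte receptor Pparg rose by 4.10 in D1D2KO and 3.97 in WT cells, the liver X receptor Nr1h3 by 2.66 in D1D2KO and 2.63 in WT cells, the carbohydrate-responsive factor Mlxipl by 1.80 in D1D2KO and 2.23 in WT cells and Srebf1 by 1.69 in D1D2KO and 2.03 in WT cells. Between differentiated genotypes 3 of the 14 were called. Srebf1, which encodes the binding protein that drives lipogenic genes, was lower in D1D2KO by 0.43 (SE 0.09; limma, adjusted p = 0.00843), and Srebf2, its cholesterol-related counterpart, by 0.34 (SE 0.08; adjusted p = 0.0131), a call that ended with only the groups compared (adjusted p = 0.0578). Ppara, the receptor that fatty acids activate, was higher by 0.53 (SE 0.11; adjusted p = 0.00717). The difference in response was called by limma for 0 of the 14, with 5 at an unadjusted p under 0.05.

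Genes that act on fatty acyl chains were counted in 2 lists. Of 12 measured genes of polyunsaturated acid release and reacylation 2 rose and 8 fell in each genotype (median change -0.56 in D1D2KO and -0.39 in WT). The acyltransferase Lpcat3, which puts polyunsaturated chains into phospholipids, rose by 1.57 in D1D2KO and 1.64 in WT cells, while Lpcat2 fell by 1.64 in D1D2KO and 1.40 in WT cells and Mboat2 by 1.21 in D1D2KO and 1.14 in WT cells. Between differentiated genotypes 5 of the 12 were lower in D1D2KO and 0 higher (median -0.22), among them the arachidonate-releasing phospholipase Pla2g4a at -0.67 (SE 0.09; limma, adjusted p = 0.000202), the arachidonate-preferring acyl-CoA synthetase Acsl4 at -0.45 (SE 0.09; adjusted p = 0.00633) and Mboat2 at -0.42 (SE 0.07; adjusted p = 0.00169). Pla2g4a was already lower in undifferentiated D1D2KO cells, by 0.61 (SE 0.09; adjusted p = 0.00106). Of 13 measured genes of ceramide synthesis and of very long chain transport or shortening, 6 rose and 3 fell in D1D2KO cells. In WT cells 6 rose and 1 fell. The largest rises were those of the peroxisomal transporter Abcd2 (3.15 in D1D2KO, 2.81 in WT) and of Scp2, which encodes a sterol carrier protein and a peroxisomal thiolase (1.81 in D1D2KO, 1.36 in WT). Between differentiated genotypes 2 of the 13 were called higher in D1D2KO and 1 lower (median 0.05). Hsd17b4, a peroxisomal beta-oxidation enzyme, was 0.40 (SE 0.08) higher in D1D2KO than in WT differentiated cells (limma, adjusted p = 0.00383).

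The likeness of profiles was measured as the root mean square difference over the 12 samples between log2 profiles, each centred on its own mean, as a description with no test. Among the members, Fads1 was nearest to Elovl5 (0.122) and Elovl1 (0.125), Fads2 to Fads1 (0.184) and Elovl5 (0.186), and Elovl6 to Fads2 (0.250). Outside the list the genes nearest to Elovl6 were Nox4 (0.123), Csrp1 (0.137) and Rgs4 (0.147), and those nearest to Fads2 were Osmr (0.120), Ank3 (0.124) and Ifi203 (0.127). Scd1 was nearest to the glycogen enzymes Gbe1 (0.257) and Pygl (0.278), followed by the adipocyte phospholipase Plaat3 (0.284). Elovl3 was nearest to Acss3 (0.294), the hormone-sensitive lipase Lipe (0.395) and the glycerol channel Aqp7 (0.396), and Scd2 to Gfpt2 (0.108), Tgm2 (0.119) and Ndrg1 (0.134). For scale, the profiles themselves had a root mean square about their mean of 0.571 for Elovl6, 0.354 for Fads2, 1.77 for Scd1, 2.01 for Elovl3 and 0.427 for Scd2. It was 0.183 for Elovl1, 0.220 for Fads1 and 0.304 for Elovl5. Genes that vary little lie near each other by this measure whatever their pattern.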

How the data were processed

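The authors deposited 1 table of 35556 probe sets in 12 samples. The deposited values, from 1.15 to 14.17, were read as log2 signals that had been made comparable across arrays before deposit. That reading, base included, was inferred from the range and from array medians of 5.61 to 5.69 over all 35556 probe sets. The array quartiles and medians against which genes were placed were instead taken over the 19938 genes tested, with medians of 6.00 to 6.06. How the authors summarised and normalized probe sets is not given in the sources used here, and no detection calls were used. Of the probe sets, 21789 had 1 gene in the platform annotation, 1621 had several and 12146 had none listed; for a gene with several, that of highest average signal was kept, without a filter on low signal, leaving 19938 genes. Groups came from the sample titles. All samples entered 1 limma 3.58.1 fit (R 4.3.3; lmFit, eBayes) of 4 group means with 5 two-sided contrasts. Only the contrast for differentiation of D1D2KO cells was checked on simulated data, in which a small share of genes changed. RefSeq GRCm38.p6 gave names, neighbours and promoter windows. No protein sequences were used. The number of arrays limits the precision.

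The members and the lists were chosen with earlier results of these data known. All members are named; from each list, per contrast, the 4 called genes that changed most and the 2 uncalled genes of highest signal could be named, besides the 3 likest genes of a member. Of the 16 regulators 14 were measured, of the 14 reacylation genes 12 and of the 16 genes of ceramide synthesis and very long chains 13. Equal replicate numbers were checked for pairing by the correlation of deviations from group means. Only in D1D2KO differentiated and undifferentiated cells did every pair exceed the threshold of 0.1 (0.101 to 0.176, against -0.147 to 0.052 for unequal numbers). Unequal numbers reached 0.220 between differentiated genotypes, so correlations of this size do not establish pairing. The main fit did not pair samples, and a replicate block was run as an alternative. Alternatives were array centring, quantile normalization, genes above the median signal, other uses of probe sets, only the groups compared, trended or robust eBayes, array weights, the replicate block and leaving out each sample.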

Additional observations from a re-analysis of the deposited data

Results flagged for a closer look

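Of the members, the genes of the related lists that are named for this comparison and the targeted genes, 5 answered differentiation differently in the 2 genotypes by the limma test of the difference itself. The difference in response, D1D2KO minus WT, was -0.98 for Elovl6 and -0.82 for Fads2, in each of which all 3 D1D2KO differentiated samples lay below all 9 other samples. It was -1.20 for the targeted gene Dgat2 (adjusted p = 0.00271), -0.71 for Mid1ip1 and 0.52 for Hsd17b4 (adjusted p = 0.0290). The call of Hsd17b4 ended with the replicate block (adjusted p = 0.0545) and without any 1 sample other than replicate 3 of either differentiated group (adjusted p from 0.0573 to 0.0820), and that of Mid1ip1 ended with the mean of its probe sets (-0.43, adjusted p = 0.0741).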

How the results depend on the processing

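Of the member comparisons called in the fit of all samples, 0 changed direction under any alternative run. Leaving out 1 sample kept the call in 285 values and ended it in 15, and the other alternatives kept it in 243 and ended it in 1, Elovl6 in undifferentiated cells after quantile normalization; the report names each. The cause of these losses was not tested. In comparisons of 2 groups, the values with 1 sample left out include samples of the groups not compared. There the difference itself cannot change, only the shared spread, so the kept calls overstate how stable the calls were. All 15 values in which a call ended came from fits without a compared sample. They belonged to Elovl1 in both differentiation comparisons, Elovl5 in WT differentiation and Elovl6 between undifferentiated genotypes. The counts of all genes moved more. Between differentiated genotypes 1184 genes were called with only the groups compared, against 2726, and 1344 to 2822 with 1 sample left out (lowest without WT differentiated replicate 2). Between undifferentiated genotypes, against 1600, the count was 838 after quantile normalization, 881 among genes above the median signal (split 210 higher and 671 lower), 2597 with only the groups compared, 4224 with array weights and 339 to 1967 with 1 sample left out (lowest without WT undifferentiated replicate 2). Of the members 1 was called there after quantile normalization and 1 to 3 with 1 sample left out. For the difference in response, against 291, the count was 537 among genes above the median signal (which split the differentiated genotype calls 511 higher and 1691 lower), 472 with trended eBayes, 604 with array weights and 159 to 449 with 1 sample left out (lowest without WT undifferentiated replicate 1). Some uncalled values changed sign. In undifferentiated cells quantile normalization gave 0.060 for Elovl5, -0.034 for Elovl7, 0.033 for Fads1 and 0.040 for Fads2, and centring gave -0.00082 for Elovl7. With 1 sample left out, Elovl4 ranged from -0.071 to 0.080 and Elovl5 from -0.025 to 0.0033 there, and Elovl3 from -0.082 to 0.82 between differentiated genotypes. For the difference in response array weights gave 0.048 for Elovl1 and -0.0055 for Elovl3, and leaving out 1 sample gave -0.10 to 0.058 for Elovl1 and -0.31 to 0.59 for Elovl3. That of Dgat1 was 0.042 after quantile normalization and -0.17 to 0.086 with 1 sample left out, against -0.05. The replicate block called 9 members in D1D2KO differentiation, 6 in WT differentiation, 6 between differentiated genotypes, 2 between undifferentiated genotypes and 2 in the difference in response, as without it; of the genes named, it ended only the Hsd17b4 call (adjusted p = 0.0545). Outside D1D2KO differentiation equal numbers did not meet the pairing threshold (lowest correlations -0.0125 in WT differentiation, -0.233 between differentiated and -0.0146 between undifferentiated genotypes). With no detection calls, changes of Elovl3, Elovl4 and Elovl7, at low signal, have an uncertain size.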
